A study of Rattus norvegicus with 4 samples.

Results

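Collagen genes, and the genes whose products hydroxylate, fold, cleave and crosslink collagen, were followed in cultured neonatal rat ovaries with and without glial cell line-derived neurotrophic factor (GDNF). Members were chosen by gene symbol, with earlier results of these data known. They were every gene with a collagen chain symbol (Col, a number, a, a number), the lysyl oxidases Lox and Loxl1 to Loxl4, the lysyl hydroxylases Plod1 to Plod3, the prolyl 4-hydroxylase subunits P4ha1 to P4ha3, Serpinh1, Sparc, Pcolce and Bmp1. The array held 78 probe sets, each with 1 symbol, for 55 such genes, out of 14217 genes measured by a probe set of that symbol alone. Of the 55, 41 were collagens and 14 were processing genes. Loxl4, Col4a3, Col6a4, Col21a1 and Col28a1 were not analysed here. Where a gene had several probe sets, the one with the highest mean over the 4 arrays was used.

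The samples were ovaries of 4-day-old rat pups kept whole on floating filters for 2 days, 2 samples without added factor (control) and 2 with GDNF. Each sample was RNA pooled from 6 to 10 ovaries, with a given animal contributing at most 1 ovary to a group, and was hybridised to 1 Affymetrix array. The strain and the GDNF dose are not given in the sources used here, and the treatment text of all 4 samples is the one for cultures without factor, so the groups rest on the titles and descriptions. The medium of both groups held insulin at 200 ng/ml and ascorbic acid at 0.05 mg/ml, the latter being the cofactor that keeps prolyl and lysyl hydroxylases active. Nothing in the labels says whether the samples of a group came from separate litters or cultures, and any p-value here reflects the spread among these samples alone, part of which may be technical.

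Collagens are built from chains with long runs rich in glycine and proline, and 3 such chains wind into a helix. In the endoplasmic reticulum, prolyl 4-hydroxylases stabilise that helix, lysyl hydroxylases prepare the sites of later crosslinks, and the chaperone Serpinh1 (Hsp47) binds the folded procollagen. Outside the cell the propeptides are removed and lysyl oxidases crosslink the fibrils or networks. In the ovary, type IV collagen lies in the basement membranes around follicles, vessels and the surface epithelium. Fibrillar collagens fill the stroma.

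Values are MAS5 signals, linear array intensities scaled by the authors to the same trimmed mean on each array. Median signals ran from 36.7 to 41.1 over the 4 arrays, the 3′ to 5′ ratio of the beta-actin control probe sets from 2.62 to 3.76, and the correlation of log2 signals between arrays, across probe sets, from 0.971 to 0.986. The pair of GDNF samples had the lowest correlation (0.971), below every pair of 1 control and 1 GDNF sample, and the control pair had 0.984. The number of arrays limits the precision. Oocyte markers were bright in every sample, the 4 measured summing to signals of 3742 and 4656 in control and 4922 and 6239 in GDNF, and so were the 4 granulosa markers (2272 and 1938 in control, 2663 and 2363 in GDNF). The 5 cartilage and bone markers measured summed to a signal of only 26 to 44 per sample.

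Differences below are log2 fold changes, GDNF minus control, on the log2(signal + 1) scale, with limma's moderated standard error (SE) and n = 2 per group. Of the 55 members, 43 had a mean log2 signal at or above the 40th percentile of all probe sets (a signal of about 21.4) and were tested, 29 collagens and all 14 processing genes. The 12 that fell below it, all collagens, were Col2a1, Col4a4, Col5a3, Col8a1, Col9a1, Col10a1, Col11a2, Col17a1, Col19a1, Col20a1, Col22a1 and Col24a1. Among these, dim by that selection, Col2a1 had signals of 15.0 and 5.3 in control and 11.1 and 10.1 in GDNF, and Col9a1 never exceeded 6.2. Other chains of type IX and type XI collagen passed the filter. Col9a2, Col9a3 and Col11a1 had mean signals of 30.1, 109 and 193. Col5a3 had signals of 38.2 and 17.2 in control and 28.2 and 4.4 in GDNF, with a wider log2 range within each group (1.11 and 2.43) than the difference between the means (-1.09). Among the 12, Col24a1 was higher in GDNF without overlap, at signals of 13.9 to 15.0 in control and 18.4 to 20.1 in GDNF. Just above the filter lay Col23a1 and just below it Col5a3 and Col8a1.

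No collagen or processing gene passed 0.05 in limma's test once p-values were adjusted (Benjamini-Hochberg) over all 18625 probe sets that were tested, and neither did any other probe set (0%). The lowest adjusted p of a member was 0.999. By their brightest probe sets, 2 members had an unadjusted p under 0.05, P4ha2 and Col4a5, both lower in GDNF, where 2.73% of all probe sets lay under that value. The count of 2 depended on the setting. With all samples kept it was 0 without the variance trend in limma's eBayes, and 3 both with no filter and with 1 probe set per gene. The shares of all probe sets in those settings are not given here, so these counts have no background. Of the 43 members, 29 had a lower mean in GDNF and 14 a higher mean. That is 67.4% lower, against 51.5% of all probe sets (51.4% with 1 probe set per gene), where 48.5% were higher. The median difference was -0.07 over the members and -0.01 over all probe sets, and the members' median moved to -0.12 without GDNF replicate 2.

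Of the 43, 15 had no overlap between the groups, or 34.9%, close to the 30.0% of all probe sets and the 31.9% found with 1 probe set per gene. By direction, 13 (30.2%) were lower in GDNF, against 16.6% of all probe sets (18.1% with 1 per gene), and 2 (4.65%) were higher, against 13.4% (13.8%). None of them was as much as 1.5-fold apart in its brightest probe set, a size with no overlap that 1.07% of probe sets reached. In 11 members (25.6%, against 19.1% of all probe sets) the difference exceeded the range within both groups. Most differences were small: 32 of 43 (74.4%, against 82.4% of all probe sets) lay within 1.2-fold, and the median absolute difference of 0.11 was below the median range between the 2 control samples (0.16) and between the 2 GDNF samples (0.25). For 40 members the 95% interval lay within a 2-fold change either way, and for 22 within 1.5-fold. With each sample left out in turn, 19 members (44.2%) kept their direction, against 43.5% of all probe sets. Of these 19, 16 were lower, where 29 of the 43 were lower to begin with. The share of lower ones among all probe sets that kept their direction is not given here. In whole ovaries a lower signal may come from fewer cells of a type or from less RNA per cell, and the 2 cannot be told apart.

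**Figure D1:**
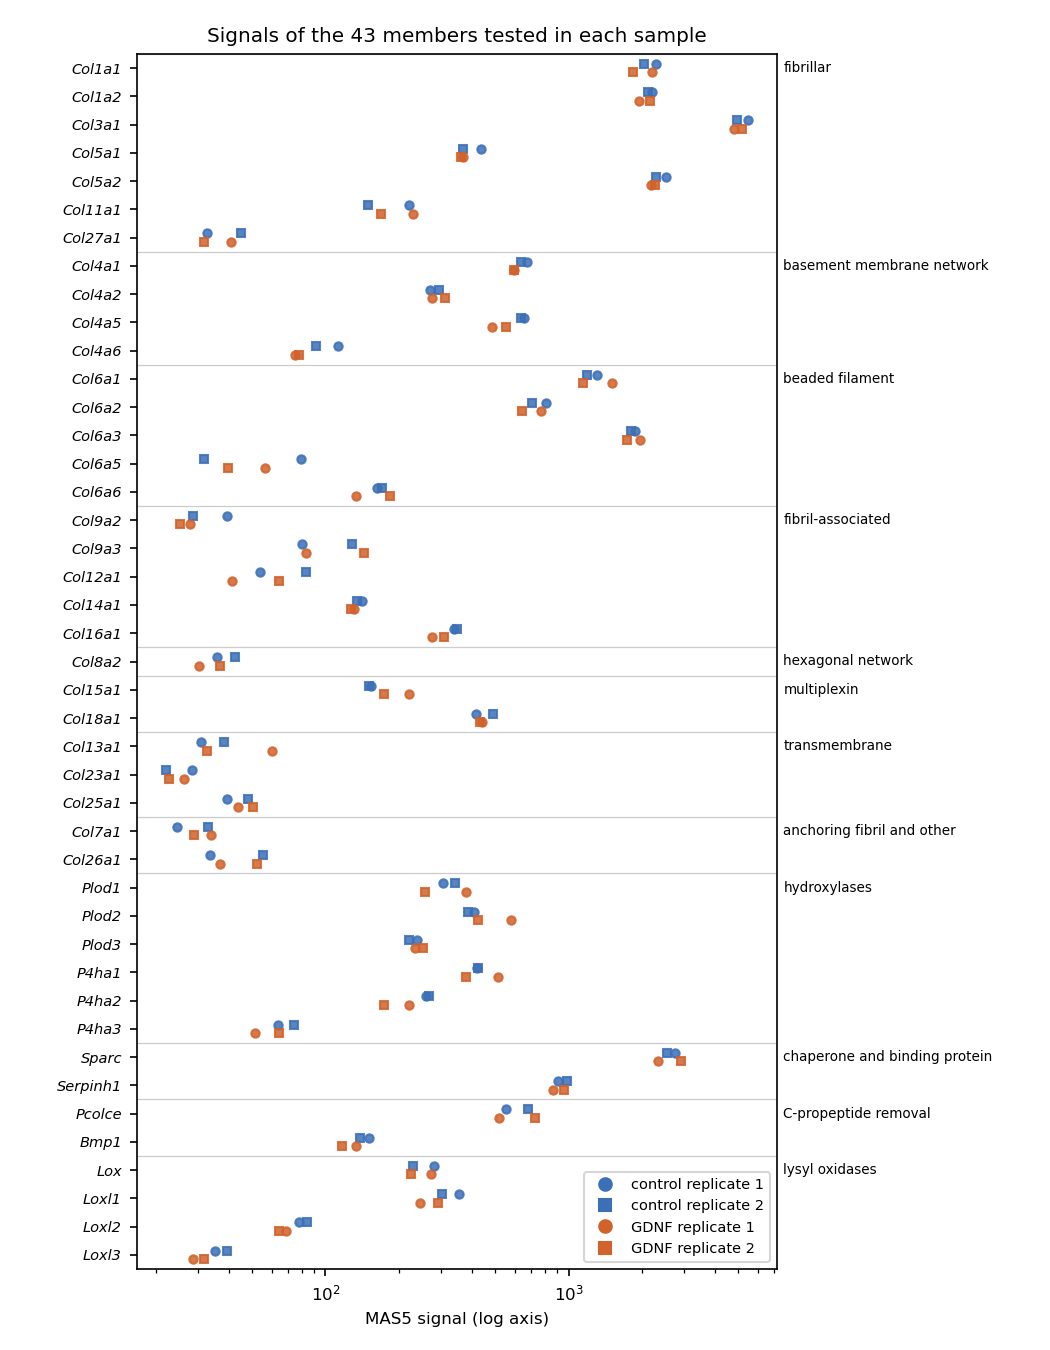
MAS5 signal (log axis) of the brightest probe set of each of the 43 members tested, in control (blue) and GDNF (orange) samples, replicate 1 as circles and replicate 2 as squares, grouped by class. For most members the 4 points lie within a narrow band. The lysyl oxidase-like genes, Col4a5, Col4a6 and P4ha2 are among the 13 members with both orange points below both blue ones. Col15a1 and Plod2 have both above.

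The major fibrillar collagens differed by at most 0.10 in size between the groups. Col3a1, the chain of type III collagen in reticular fibres, had signals of 5469 and 4938 in control and 4785 and 5159 in GDNF, a difference of -0.06 (SE 0.10, 95% interval -0.30 to 0.17). Col1a1, the alpha 1 chain of type I collagen, had 2297 and 2043 in control and 2208 and 1843 in GDNF (-0.10, SE 0.12). Col1a2, its partner chain, had 2199 and 2132 in control and 1952 and 2167 in GDNF (-0.07, SE 0.10). In these probe sets the groups overlapped, and the direction of each turned when a single sample was dropped: Col1a1 turned to 0.03 without GDNF replicate 2, Col3a1 to 0.01 without control replicate 1, and Col1a2 to 0.0014 without GDNF replicate 1. The second probe sets of Col1a1 and Col1a2 kept their direction with each sample dropped. That of Col1a1 gave -0.11 (from -0.20 to -0.02) with overlap. That of Col1a2, with 2043 and 2056 in control and 1957 and 1884 in GDNF, gave -0.09 (from -0.12 to -0.07) without overlap and beyond both ranges within the groups.

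Of the 11 fibrillar genes measured, 7 were tested. In GDNF 6 of the 7 had a lower mean, where 51.4% of all genes did, with a class median of -0.09. Col5a1, a chain of the type V collagen that starts and limits fibrils, was the lowest of them. It had 437 and 369 in control and 368 and 362 in GDNF (-0.14, SE 0.13). The highest GDNF sample missed the lowest control sample by under 1 unit of signal, and its other probe set went the opposite way (0.04). Col5a2, which joins it in type V collagen, gave -0.11 (SE 0.10) without overlap and Col27a1 -0.09 (SE 0.27) with overlap. Col11a1, a chain of type XI collagen, was the 1 fibrillar gene with a higher mean in GDNF. Its signals of 221 and 150 in control and 230 and 170 in GDNF (0.12, SE 0.23) were the higher of each group in replicate 1, and it turned to -0.16 without control replicate 2 and to -0.10 without GDNF replicate 1.

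Chains of type IV collagen, the network of basement membranes, differed among themselves. The alpha 1 and alpha 2 chains form the common network, and the alpha 5 and alpha 6 chains a second one found in a narrower set of basement membranes, including those of smooth muscle and some epithelia. Col4a1 and Col4a2 lie head to head and share the stretch between their starts, which RefSeq (assembly GRCr8) puts at 76 bases. That stretch is shown because the chains it serves are made together. It runs from chr16:84885521-84885596 on the plus strand, with the start of Col4a2 just before it and that of Col4a1 just after it.
Col4a1 and Col4a2 shared stretch: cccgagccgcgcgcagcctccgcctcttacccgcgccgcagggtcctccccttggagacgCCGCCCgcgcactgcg
Capitals mark the match to the GC box, searched as GGGCGG or CCGCCC. Of the 33469 promoters in the table, 18.1% hold one in the same 76 bases before their start. The CCAAT box (CCAAT or ATTGG) had 0 matches in the stretch, against 13% of promoters that hold one there.

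Col4a5 and Col4a6 are likewise head to head, on chromosome X, with 1263 bases between their annotated gene models. The bases before each gene are shown because these were the type IV chains with the larger differences. They are the parts of the table's windows that lie outside both annotated genes, chrX:109907109-109907250 on the plus strand for Col4a5 and chrX:109905988-109906194 on the minus strand for Col4a6.
Col4a5: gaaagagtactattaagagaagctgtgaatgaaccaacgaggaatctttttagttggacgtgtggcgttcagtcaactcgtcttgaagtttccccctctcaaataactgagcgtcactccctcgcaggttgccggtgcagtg
Col4a6: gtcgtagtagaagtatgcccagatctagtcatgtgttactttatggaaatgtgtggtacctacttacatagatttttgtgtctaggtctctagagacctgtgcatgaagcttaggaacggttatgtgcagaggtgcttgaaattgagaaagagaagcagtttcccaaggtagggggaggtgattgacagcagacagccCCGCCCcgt
Capitals again mark the GC box, with 1 match before Col4a6 and 0 before Col4a5, where 25.2% and 15.4% of promoters hold one in the same positions. Neither held a CCAAT box (29.6% and 20.2% of promoters).

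Col4a5 had signals of 653 and 637 in control and 482 and 554 in GDNF. Both GDNF samples were below both control samples, and the difference was -0.32 (SE 0.11, 95% interval -0.59 to -0.05, limma adjusted p = 0.999). Col4a6 had 113 and 91.3 in control and 75.2 and 78.0 in GDNF (-0.40, SE 0.18), again without overlap. Its second probe set also gave -0.40, with overlap. With each sample left out in turn, Col4a5 ran from -0.42 to -0.22 and Col4a6 from -0.55 to -0.25.

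Col4a1 had 674 and 636 in control and 595 and 598 in GDNF. It differed by -0.13 (SE 0.10) without overlap, and by -0.02 in its other probe set. Col4a2 had 269 and 295 in control and 273 and 309 in GDNF. It differed by 0.05 (SE 0.13) with overlap, and turned to -0.02 without control replicate 1 and to -0.04 without GDNF replicate 2. The log2 ratio of Col4a1 over Col4a2 within an array was 0.18 lower in GDNF, less than its range of 0.22 between the control samples. That of Col4a5 over Col4a6 was 0.08 higher, with overlap. Neither pair of neighbours separated beyond its spread. The other adjacent members that were tested had -0.06 and -0.11 for Col3a1 and Col5a2, 0.07 and -0.10 for Col6a1 and Col6a2, and -0.08 and -0.09 for Col6a5 and Col6a6.

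Type VI collagen, which forms beaded filaments between basement membranes and stroma, overlapped between the groups in the brightest probe set of each of its 5 chains. Col6a1 had signals of 1304 and 1195 in control and 1504 and 1148 in GDNF (0.07, SE 0.14), and turned to -0.12 without GDNF replicate 1. Col6a2 had 811 and 707 in control and 774 and 645 in GDNF (-0.10, SE 0.13), and turned to 0.03 without GDNF replicate 2. Its second probe set did separate the groups, with 27.1 and 27.7 in control and 16.9 and 22.2 in GDNF (-0.48, SE 0.30, from -0.67 to -0.29 with each sample dropped). In the brightest probe sets of both genes the replicate 1 sample was the higher of each group. Col6a3 (0.0035, SE 0.10), Col6a5 (-0.08, SE 0.42) and Col6a6 (-0.09, SE 0.18) also overlapped. The ratio of Col6a1 over Col6a2 within an array was 0.17 higher in GDNF, without overlap and beyond its ranges of 0.07 and 0.13 within the groups.

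Of the 9 fibril-associated collagens measured, which sit on the surface of fibrils, 5 were tested and 4 had a lower mean in GDNF. With 1 probe set per gene, 51.4% of all genes did. Col12a1 had signals of 53.9 and 83.3 in control and 41.1 and 64.1 in GDNF (-0.38, SE 0.30). The groups overlapped, since replicate 2 was the higher sample in both, and the difference ran from -0.69 to -0.06 when 1 sample was dropped. Col9a2, near the filter, had 39.3 and 28.4 in control and 27.6 and 25.2 in GDNF (-0.33, SE 0.28), and -0.10 without control replicate 1. Col16a1 lies outside the rule for named genes and was picked after its values were seen. It had signals of 339 and 348 in control against 275 and 307 in GDNF (-0.24, SE 0.12), with no overlap, and ran from -0.32 to -0.16. Col14a1 gave -0.09 (SE 0.14), also without overlap. Col9a3 was the 1 gene of the class with a higher mean. It had 79.8 and 128 in control and 83.4 and 145 in GDNF (0.12, SE 0.31). Replicate 2 was the higher in both groups, and it turned to -0.22 without control replicate 1 and to -0.28 without GDNF replicate 2.

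Col15a1 had the largest positive difference among the collagens tested. It encodes a multiplexin, a proteoglycan that links basement membranes to the stroma below. Its signals were 154 and 151 in control and 222 and 175 in GDNF. Both GDNF samples were above both control samples, with a difference of 0.37 (SE 0.16, 95% interval -0.004 to 0.74), 0.20 without GDNF replicate 1 and 0.54 without GDNF replicate 2. A dimmer probe set gave 0.14, with overlap. Col18a1, the other multiplexin and the source of endostatin, had 418 and 487 in control and 440 and 434 in GDNF (-0.05, SE 0.12), and turned to 0.07 without control replicate 2.

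The tested genes of the remaining collagen classes were dim and their groups overlapped. Below the filter, Col8a1 had 18.6 and 25.4 in control and 17.0 and 12.6 in GDNF, without overlap. Col13a1, a transmembrane collagen, had 30.7 and 38.1 in control and 60.3 and 32.5 in GDNF. GDNF replicate 1 alone was high, and the difference of 0.36 (SE 0.33) turned to -0.07 without GDNF replicate 1. Col23a1, also a transmembrane collagen, had 28.2 and 22.0 in control and 26.3 and 22.8 in GDNF (-0.02, SE 0.29), and turned to 0.15 without control replicate 1 and to 0.08 without GDNF replicate 2. Col7a1, the collagen of anchoring fibrils, had 24.4 and 32.8 in control and 33.8 and 28.8 in GDNF (0.14, SE 0.28), and turned to -0.07 without control replicate 1. Col26a1 had 33.4 and 55.4 in control and 36.8 and 52.2 in GDNF (0.03, SE 0.31), and turned to -0.33 without control replicate 1 and to -0.22 without GDNF replicate 2. Col25a1, the third transmembrane collagen, gave 0.11 (SE 0.23). Col8a2, a short-chain network collagen, had 35.7 and 42.4 in control and 30.2 and 36.8 in GDNF (-0.22, SE 0.25). None of these genes had a second probe set that was tested.

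**Figure D2:**
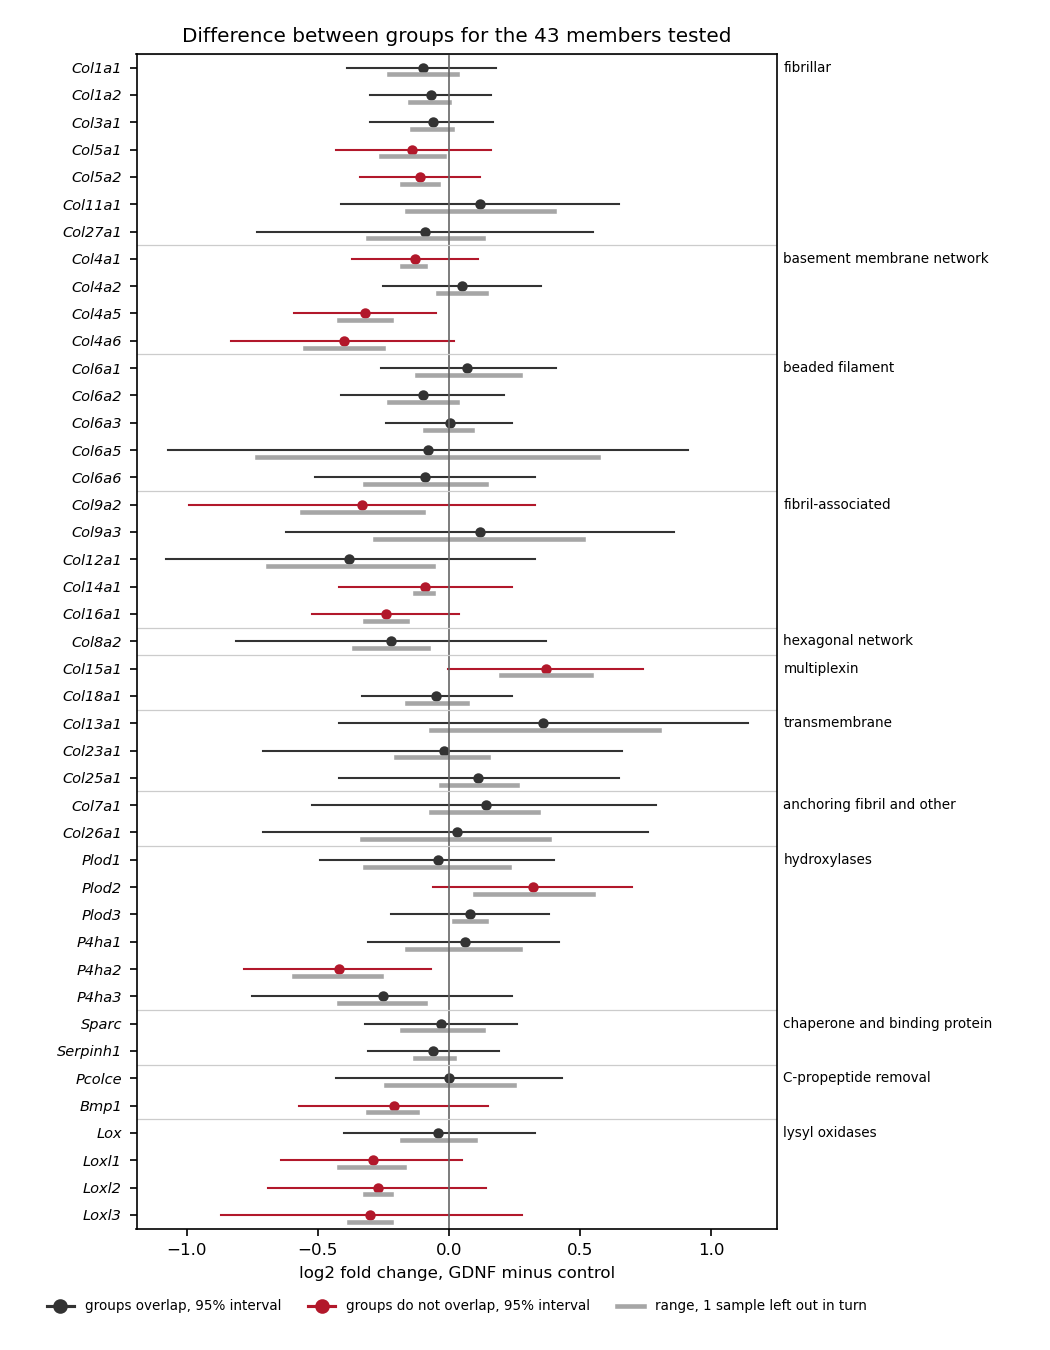
Log2 fold change (GDNF minus control) of each of the 43 members tested with limma's 95% interval, red where the groups do not overlap, and the range with 1 sample left out in turn (grey bar). The intervals of P4ha2 and Col4a5 lie wholly below 0 before adjustment, and those of the others include 0.

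The hydroxylases split between lower and higher, 3 and 3 of 6. P4ha2, the alpha 2 catalytic subunit of prolyl 4-hydroxylase, had the smallest p among the members' brightest probe sets. It had signals of 259 and 267 in control and 220 and 174 in GDNF. Both GDNF samples were below both control samples, with a difference of -0.42 (SE 0.15, 95% interval -0.78 to -0.07, limma adjusted p = 0.999), -0.26 without GDNF replicate 2 and -0.59 without GDNF replicate 1. Its dimmer probe set gave -0.24, with overlap. P4ha1, the more widely expressed alpha 1 subunit, had 419 and 426 in control and 511 and 378 in GDNF (0.06, SE 0.16). The GDNF samples lay on either side of the controls, and the gene turned to -0.16 without GDNF replicate 1. P4ha3, outside the rule for named genes, had -0.25 (SE 0.21) with overlap. Chosen after the values were seen, the log2 ratio of P4ha1 over P4ha2 within an array was 0.48 higher in GDNF. It did not overlap, and its ranges within the groups were 0.02 and 0.10. The ratio used the brightest probe sets and was not computed with the dimmer one of P4ha2. Among the partner ratios computed, those of Col6a1 over Col6a2 and Plod2 over Plod1 did not overlap either, and the rest did. For single probe sets, 30.0% did not overlap.

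Plod2, the lysyl hydroxylase of the telopeptides, was the highest of the hydroxylases. It had signals of 407 and 384 in control and 579 and 423 in GDNF (0.32, SE 0.16). Both GDNF samples were above both controls, but the gap from 407 to 423 was small beside the range within GDNF, and the difference was 0.10 without GDNF replicate 1. Plod1, which hydroxylates lysines of the helix, had 303 and 340 in control and 378 and 258 in GDNF (-0.04, SE 0.19), and turned to 0.04 without control replicate 2 and to 0.23 without GDNF replicate 2. GDNF replicate 1 was the highest sample for P4ha1, Plod1 and Plod2 alike. Plod3 had 0.08 (SE 0.13) with overlap.

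P4ha2 and Plod2 are shown with the bases before their starts because they were the lowest and the highest of the hydroxylases, a choice made after their values were seen. Both genes are known targets of hypoxia-inducible factors, whose core motif was searched as ACGTG or CACGT. The stretches are the 250 bases before the RefSeq start on the plus strand, chr10:38743644-38743893 for P4ha2 and chr8:101964068-101964317 for Plod2 (GRCr8), with matches in capitals.
P4ha2: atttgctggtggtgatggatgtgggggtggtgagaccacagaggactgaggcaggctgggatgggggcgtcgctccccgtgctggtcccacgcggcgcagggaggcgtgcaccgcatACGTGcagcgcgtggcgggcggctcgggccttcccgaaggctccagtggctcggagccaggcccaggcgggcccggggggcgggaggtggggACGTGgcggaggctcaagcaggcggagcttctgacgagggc
Plod2: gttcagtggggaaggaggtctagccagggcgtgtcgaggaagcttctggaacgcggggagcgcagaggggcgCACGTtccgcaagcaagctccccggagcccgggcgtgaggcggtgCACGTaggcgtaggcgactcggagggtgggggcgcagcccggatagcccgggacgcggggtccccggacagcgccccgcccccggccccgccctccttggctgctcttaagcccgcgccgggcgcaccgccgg
Each held 2 matches to the form searched, where 16.6% of all promoters hold at least 1 in the same 250 bases. Their differences had opposite signs, and neither passed the adjusted threshold. The other hydroxylases were not searched, and any part of the motif or of hypoxia-inducible factors in these differences was not tested.

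The chaperone and the collagen-binding matrix protein overlapped between the groups in their brightest probe sets. Serpinh1 had signals of 906 and 989 in control and 863 and 957 in GDNF (-0.06, SE 0.11, 95% interval -0.31 to 0.19), and turned to 0.0038 without control replicate 2 and to 0.02 without GDNF replicate 1. Sparc, which binds collagen and calcium, had 2742 and 2553 in control and 2335 and 2890 in GDNF (-0.03, SE 0.12). It turned to 0.02 without control replicate 1 and to 0.13 without GDNF replicate 1. Its second probe set gave -0.15 without overlap. Both GDNF values of the brighter probe set lay outside the control pair, 1 below and 1 above.

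Of the genes that remove the C-propeptide, Bmp1, the procollagen C-proteinase, had signals of 152 and 138 in control and 133 and 117 in GDNF (-0.21, SE 0.15). There was no overlap, the range with a sample left out was -0.31 to -0.12, and the second probe set gave -0.36 with overlap. Pcolce, the enhancer of that proteinase, had 552 and 680 in control and 517 and 727 in GDNF, a difference of 0.00069 (SE 0.18). Replicate 2 was the higher sample of each group for Pcolce. Its difference turned to -0.01 under quantile normalization, to -0.15 without control replicate 1 and to -0.24 without GDNF replicate 2.

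All 4 lysyl oxidases measured had a lower mean in GDNF, 3 of them without overlap, with a class median of -0.28. With 1 probe set per gene, 51.4% of all genes were lower and 18.1% were lower without overlap. None of the 4 passed the threshold, and in the brightest probe sets none had an unadjusted p under 0.05. Loxl3 had signals of 35.1 and 39.3 in control and 28.5 and 31.7 in GDNF (-0.30, SE 0.24). Loxl1, which crosslinks elastin, had 356 and 302 in control and 245 and 292 in GDNF (-0.29, SE 0.15). Loxl2, known for crosslinking type IV collagen, had 77.9 and 83.7 in control and 68.8 and 64.6 in GDNF (-0.27, SE 0.18). Loxl1 and Loxl2 are outside the rule for named genes and were singled out after their values were seen. In each of the 3 both GDNF samples were below both controls, and the difference exceeded the range within both groups. With each sample left out in turn, Loxl1 ran from -0.42 to -0.17, Loxl2 from -0.32 to -0.22 and Loxl3 from -0.38 to -0.22.

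Loxl2 was also the 1 member whose 2 tested probe sets were both without overlap. The dimmer one had signals of 41.4 and 47.8 in control and 21.5 and 24.5 in GDNF, and differed by -0.93 (SE 0.25, 95% interval -1.52 to -0.33, limma adjusted p = 0.999). Its unadjusted p was under 0.05 and lower than that of any member's brightest probe set. The size of the difference thus depended on the probe set. Lox, the founding lysyl oxidase, had the smallest difference of the class. It had 280 and 230 in control and 272 and 226 in GDNF (-0.04, SE 0.16, 95% interval -0.40 to 0.33). That interval held the differences of Loxl1, Loxl2 and Loxl3 in their brightest probe sets. Lox turned to 0.10 without control replicate 1 and to 0.10 without GDNF replicate 2, and its second probe set gave 0.16. For Lox the sample values repeated between the groups, with replicate 1 the higher.

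Over the 17 members with a second tested probe set, 13 had the same direction in both, 11 lower and 2 higher (Col11a1 and Col15a1). In the other 4 (Col5a1, Col6a3, Col18a1 and Lox) the probe sets went opposite ways, each with a difference of at most 0.14 in size in the brighter one. The dimmer probe set of Col6a3, for example, gave -0.22. The dimmer probe set gave the larger difference for Loxl2, Col6a2 (-0.48, against -0.10) and Col14a1 (-0.35, against -0.09), among others. It also did so for Sparc (-0.15, against -0.03) and Col11a1 (0.30, against 0.12). The cause was not tested.

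**Figure D3:**
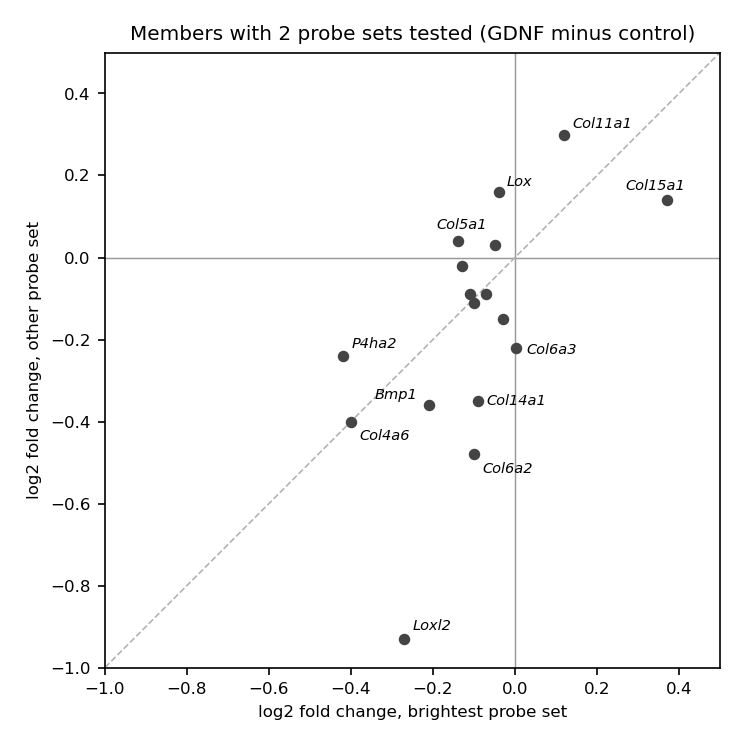
Log2 fold change (GDNF minus control) of the second tested probe set against that of the brightest one, for the 17 members with 2 tested probe sets (dashed line, equal values). Most points lie at the lower left, and Loxl2 lies farthest from the line.

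Genes that act with the members were read from lists by role. Over all genes tested, 51.4% had a lower mean in GDNF. Of the 16 genes tested for procollagen folding and export, 10 had a lower and 6 a higher mean, with a median of -0.03. The lowest was Creb3l1, a membrane-bound activator of collagen genes, with -0.53 (SE 0.31). Control replicate 1 alone stood apart there, at 118 against 57.4 and 58.8 in the GDNF samples, and the difference was -0.05 without it. The highest was Sparcl1, a relative of Sparc (0.17, SE 0.12).

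Of the 12 fibril-binding proteoglycans and glycoproteins tested, 7 were lower and 5 higher, with a median of -0.08. Fmod, fibromodulin, a proteoglycan that binds collagen and guides its crosslinking, had 261 and 265 in control and 149 and 231 in GDNF (-0.50, SE 0.21), and -0.19 without GDNF replicate 1. Dpt, dermatopontin, was the highest (0.14, SE 0.10). Of 5 collagen receptors and uptake genes, 3 were lower and 2 higher, from -0.21 for Adgrg1, a receptor of type III collagen, to 0.32 for Itga1, the integrin alpha 1 chain (SE 0.20). Of 9 genes of collagen degradation, 4 were lower and 5 higher, from -0.17 for Ctsk, cathepsin K (SE 0.13), to 0.56 for the collagenase Mmp13. Mmp13 had 52.8 and 40.4 in control and 154 and 30.5 in GDNF, and turned to -0.58 without GDNF replicate 1. Of 9 inducers of collagen genes, 7 were lower and 2 higher, with a median of -0.06. Ccn2, the connective tissue growth factor, was the highest. It had 488 and 523 in control and 623 and 809 in GDNF, without overlap (0.49, SE 0.14, from 0.30 to 0.68 with 1 sample dropped). The ligand Pdgfa was the lowest (-0.48, SE 0.22). Pdgfa had -0.16 without control replicate 1. None of these genes passed the threshold.

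Markers of the cell types that make or border on collagen were read in the same way, and none passed the adjusted threshold. Over all genes tested, 51.4% had a lower mean in GDNF. Of the 5 stromal and fibroblast markers tested, 4 had a higher mean in GDNF (median 0.10), and the 6 measured summed to 6169 and 6210 in control and 6476 and 6636 in GDNF. All 5 tested smooth muscle and pericyte markers were lower (median -0.26), summing to 403 and 384 in control and 297 and 313 in GDNF over the 6 measured. All 5 surface epithelium markers were lower (median -0.39), summing to 5701 and 4900 in control and 4646 and 4258 in GDNF. All 5 leukocyte markers (median -0.27) and all 4 endothelial markers (median -0.12) were lower as well. The groups overlapped for 3 of the 5 smooth muscle, 2 of the 5 surface epithelium and 4 of the 5 stromal markers tested. They also overlapped for 2 of the 5 leukocyte and 3 of the 4 endothelial markers. The leukocyte markers summed to 322 and 269 in control and 263 and 221 in GDNF, and the endothelial ones to 1168 and 1134 in control and 1040 and 996 in GDNF. The pericyte marker Rgs5 (5.4 to 10.4) and the fibroblast marker Thy1 (14.5 to 19.0) fell below the filter. No marker listed for these cell types was at 0.

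Relative to their mean over the 4 samples, the lysyl oxidases averaged 0.14 and 0.08 in control (replicate 1 first) and -0.12 and -0.11 in GDNF. The type IV chains averaged 0.14 and 0.06 in control and -0.16 and -0.05 in GDNF. The surface epithelium markers averaged 0.31 and 0.03 in control and -0.08 and -0.26 in GDNF, and those of smooth muscle 0.29 and 0.04 in control and -0.14 and -0.19 in GDNF. Control replicate 1 was the highest sample in all of these averages. The lowest sample was GDNF replicate 1 for the lysyl oxidases and type IV chains and GDNF replicate 2 for the markers. Fibrillar genes (0.09 and -0.03 in control, 0.02 and -0.09 in GDNF) overlapped between the groups. The part of these cell types in the differences of Col4a5, Col4a6 and the lysyl oxidases was not tested.

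**Figure D4:**
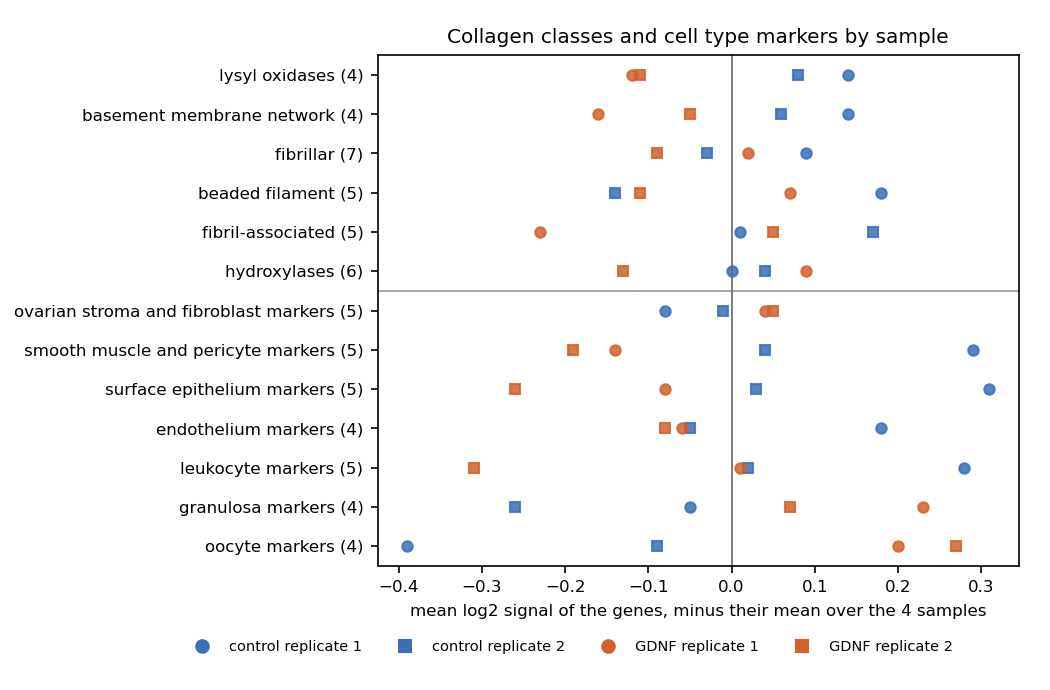
Mean log2 signal of the tested genes of each collagen class (upper rows) and cell type marker list (lower rows) in each sample, minus their mean over the 4 samples, with the number of genes in brackets. Lysyl oxidases and type IV chains have both GDNF samples below both controls, as do the smooth muscle and surface epithelium markers, while stromal, granulosa and oocyte markers have both above. The endothelium and leukocyte markers barely separate. Control replicate 2 and GDNF replicate 1 lie at -0.05 and -0.06 for endothelium and at 0.02 and 0.01 for leukocytes.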

How the data were processed

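The deposited values are linear intensities, 1 Affymetrix array per sample (MAS5 signals, per the submitters' processing notes). The arrays had been scaled to 1 trimmed mean (125.03 to 125.04 after trimming 2% at each end), which hides any change in total RNA. Dim signals from this method vary widely. Of 31099 probe sets, 57 array controls were removed, and 20826 of the rest had 1 symbol in GEO's platform annotation, 436 several and 9780 none in that table. Entrez identifiers of all 55 members matched RefSeq (GRCr8), with 0 symbols changed, and 43 had a promoter window.

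log2(signal + 1) values that passed the filter were fitted with limma 3.58.1 (R 4.3.3, eBayes with trend, two-sided). The fit was tried on simulated data with independent normal noise and added changes of 1 or 2 log2 units. Those changes are larger than the difference of any member tested, so the trial says nothing about smaller ones. An exact permutation test of 2 samples against 2 cannot go below p = 0.333. Named members were 11 fixed genes, the 5 highest and 5 lowest, any without overlap that reached 1.5-fold (0 did), and the extremes of each class. From lists of related genes, the highest and lowest were named. Members and lists were chosen with earlier results of these data known. Alternatives changed the pseudocount, the filter, the normalization, the variance trend, the probe sets used, the replicate block and the samples.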

Additional observations from a re-analysis of the deposited data

How the results depend on the processing

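No member passed the adjusted threshold in any setting tried: log2(signal + 16), all probe sets kept, only those above the 60th percentile, quantile normalized or median centred arrays, no variance trend, 1 probe set per gene, the replicate block, or 3 of the 4 samples. Of 31 named members, 30 kept their direction in every setting that used all samples, and 12 also with each sample dropped. Pcolce was the exception (-0.01 after quantile normalization). The filters, the variance trend, the replicate block and 1 probe set per gene cannot change the difference of a named member. With all samples kept, only the pseudocount and the normalizations could turn a direction. Median centring moved the members' median to -0.06. With 3 samples the median ran from -0.12 to -0.07, and 26 to 31 members had no overlap, since 1 group then holds 1 sample. The share of all probe sets without overlap in those settings is not given here, so these counts have no background.

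With the replicate number as a block, 8 probe sets of the array passed in place of 0, and 7 members (16.3%, against 7.28% of probe sets) had an unadjusted p under 0.05, with 1 residual degree of freedom. The lowest adjusted p of a member was 0.276. What the numbers stand for is not given in the labels. The replicate 1 minus 2 differences of control and GDNF correlated at 0.32 across probe sets and at 0.44 across the 43 members, a hint from the data and not the design.

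Named members that changed sign when a sample was dropped had these ranges. Among collagens, Col1a1 ran from -0.23 to 0.03, Col1a2 from -0.15 to 0.0014, Col3a1 from -0.14 to 0.01, Col11a1 from -0.16 to 0.40, Col4a2 from -0.04 to 0.14, Col6a1 from -0.12 to 0.27 and Col6a2 from -0.23 to 0.03. Col9a3 ran from -0.28 to 0.51, Col18a1 from -0.16 to 0.07, Col13a1 from -0.07 to 0.80, Col23a1 from -0.20 to 0.15, Col7a1 from -0.07 to 0.34 and Col26a1 from -0.33 to 0.38. Among processing genes, Plod1 ran from -0.32 to 0.23, P4ha1 from -0.16 to 0.27, Sparc from -0.18 to 0.13, Serpinh1 from -0.13 to 0.02, Pcolce from -0.24 to 0.25 and Lox from -0.18 to 0.10. The cause of these changes was not tested.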
